A study of Mus musculus with 4 samples.

Results

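The unfolded protein response and the integrated stress response were followed in mouse liver through 10 genes, chosen by name and read by every probe set annotated to them. These were 21 of the 45037 probe sets tested and 10 of 18193 genes. Hspa5, Dnajb9, Herpud1 and Xbp1 stood for the arm of endoplasmic reticulum (ER) chaperones and the factor XBP1, with 10 probe sets. Atf4, Ddit3, Atf3, Trib3, Asns and Chac1 stood for the arm of ATF4 and CHOP, with 11. All 10 genes had a value, and no filter on level was applied.

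Liver RNA came from wild-type (WT) mice and from mice with a liver-specific knockout of Baf60a (Baf60a LKO), which belongs to SWI/SNF, a complex that remodels chromatin. Both groups had a C57BL/6 background, ate a high-fat diet for 10 weeks from 6 weeks of age and were fasted overnight before the liver was taken. Each group had 2 Affymetrix Mouse Genome 430 2.0 arrays, hybridised with pooled RNA and labelled as biological replicates. The pools were treated as separate. The number of mice per pool, their sex and the Cre driver are not given in the sources used here. The spread measured is that between pools, and arrays carry no read depth, so their number limits the precision. Smarcd1, the gene of BAF60a, read 5.62 and 5.88 on the WT arrays and 5.34 and 5.30 on the Baf60a LKO arrays. It did not pass (limma, adjusted p = 0.410), and whether its probe set lies in the deleted part is not known, so it does not check the genotype. WT replicate 1 stood apart somewhat: over probe sets it correlated with the other arrays at 0.987 to 0.991, where the other pairs gave 0.993 to 0.996. Values without single arrays are therefore given beside members that they moved.

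Proteins that fold in the ER are watched by 3 sensors, IRE1, ATF6 and PERK. IRE1 splices the Xbp1 message and thereby yields an active transcription factor, and XBP1 and ATF6 raise chaperones and the machinery that removes misfolded proteins. PERK and other kinases phosphorylate eIF2alpha, which slows translation in general but favours that of ATF4, and ATF4 and its target CHOP then raise genes of amino acid supply and of cell death. ATF4 is governed largely by translation and XBP1 by splicing, and neither was measured here: the values are levels of messenger RNA. The liver secretes much protein, and fasting and high-fat feeding are known to engage these pathways.

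No member gene passed the threshold between the genotypes, and the largest differences lay in the ATF4 arm and ran in opposite directions. Asns lay higher in Baf60a LKO livers and Chac1 lower, each with groups that did not overlap. By limma with Benjamini-Hochberg adjustment over all genes, 0 of 10 members passed an adjusted p of 0.05, where 0.484% of all 18193 genes did. At an unadjusted p under 0.05 there were 2, Asns and Chac1, where 10.2% of all genes lay. Of the 21 probe sets 0 passed over all 45037, where 0.187% did, and 3 had an unadjusted p under 0.05, against 8.17% of all probe sets. A p above the threshold does not show that levels were equal: the fit had 2 residual degrees of freedom. In whole liver, fewer cells of a type and less RNA per cell cannot be told apart.

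**Figure D1:**
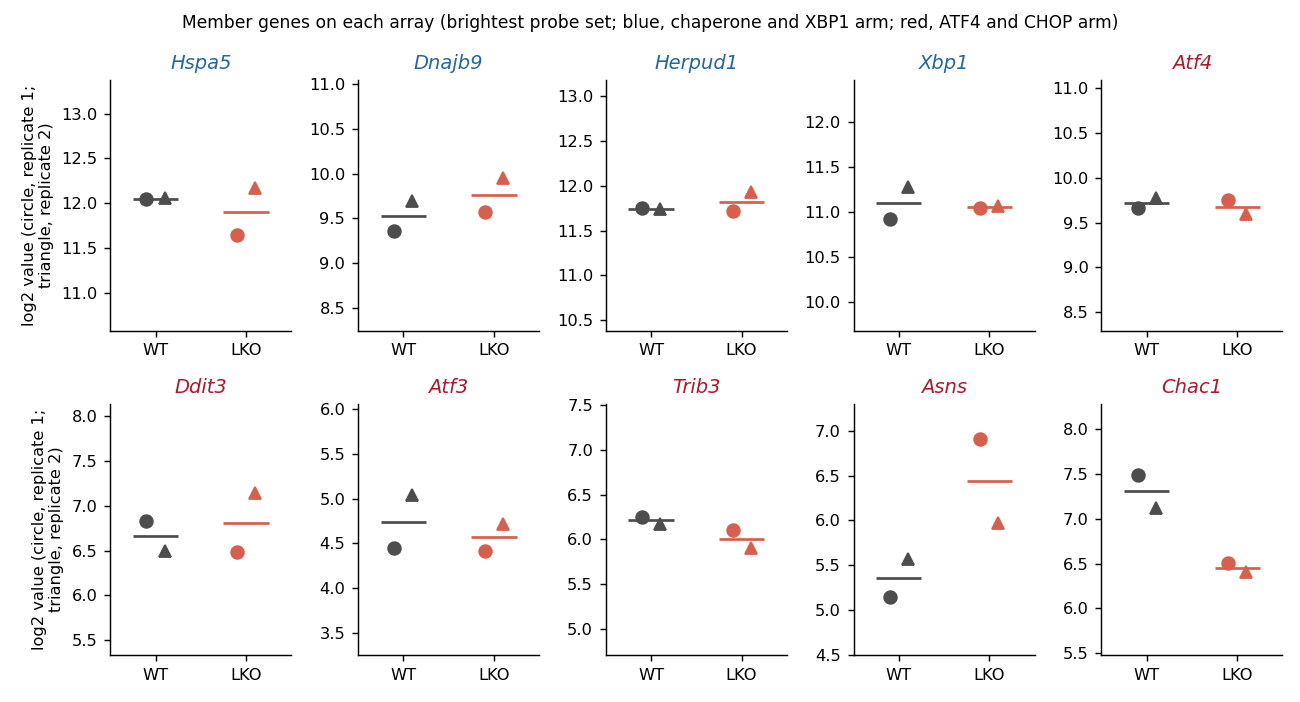
The log2 value of each member gene on its brightest probe set is plotted for the WT and Baf60a LKO arrays. Circles are replicate 1, triangles replicate 2, lines group means, and every panel spans the same log2 range. Asns read 5.14 and 5.57 on the WT arrays and 6.91 and 5.97 on the Baf60a LKO arrays, while Chac1 read 7.49 and 7.12 on the WT arrays and 6.50 and 6.40 on the Baf60a LKO arrays.

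Hspa5 encodes BiP, the main ER chaperone, which also holds the sensors inactive. Its promoter carries the ER stress response element (ERSE), a CCAAT box and a CCACG box set 9 bases apart, and the core of the unfolded protein response element (UPRE), searched here as TGACGTG. Herpud1, a membrane protein of ER-associated degradation (ERAD), carries the shorter element ERSE-II, in which an ATTGG and a CCACG box are 1 base apart, and a site of the kind bound by ATF4 with C/EBP partners (CARE), searched as TGATGNAA. The stretches are shown because they hold elements through which the sensors are known to act on these genes, and the capitals mark the matches. They were taken from the RefSeq promoter windows of GRCm38.p6, which run from 250 bases before to 50 after a gene's start, and are printed on the gene's strand.
Hspa5, chr2:34771913-34772063, strand +: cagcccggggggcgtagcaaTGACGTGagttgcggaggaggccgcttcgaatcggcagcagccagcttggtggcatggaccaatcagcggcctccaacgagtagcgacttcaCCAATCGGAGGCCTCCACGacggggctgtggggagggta
Herpud1, chr8:94386297-94386407, strand +: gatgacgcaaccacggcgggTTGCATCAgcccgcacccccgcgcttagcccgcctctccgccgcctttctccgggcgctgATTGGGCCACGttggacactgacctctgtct
The Herpud1 CARE lies on the opposite strand and therefore reads TTGCATCA. Both strands were searched, and no matches of different elements overlapped in the member windows. Over all 32851 windows, 0.119% held an ERSE, 0.0365% an ERSE-II, 2.01% the UPRE core and 3.97% a CARE. Dnajb9 and Xbp1 held none of these letters in their windows. A match is a description of letters, not of binding.

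On its brightest probe set Hspa5 read 12.04 and 12.06 on the WT arrays and 11.65 and 12.16 on the Baf60a LKO arrays. The Baf60a LKO arrays thus lay on either side of the WT pair. The difference was -0.14 ± 0.19 (log2, Baf60a LKO minus WT, limma standard error, adjusted p = 0.809), and it was 0.12 without Baf60a LKO replicate 1. On the probe set 1427464_s_at the values were 9.81 and 9.95 on the WT arrays and 9.53 and 10.26 on the Baf60a LKO arrays, a difference of 0.02 that turned to -0.018 after a further quantile normalization and to -0.045 after cyclic loess. On 1447824_x_at, the dimmest, the difference was -0.11 ± 0.16.

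Dnajb9 encodes ERdj4, a co-chaperone of BiP and a classical target of spliced XBP1. It read 9.36 and 9.70 on the WT arrays and 9.58 and 9.96 on the Baf60a LKO arrays, and differed by 0.24 ± 0.19 (limma, adjusted p = 0.681). The groups overlapped, since the lower Baf60a LKO array fell between the WT arrays, and the difference was 0.07 when WT replicate 1 was left out and 0.05 when Baf60a LKO replicate 2 was.

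The values of Herpud1 were 11.75 and 11.74 on the WT arrays and 11.72 and 11.93 on the Baf60a LKO arrays, a difference of 0.08 ± 0.13 (limma, adjusted p = 0.844). Its other probe set gave 0.14 ± 0.15. Without Baf60a LKO replicate 2 the differences were -0.026 and -0.015.

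Xbp1 was read by 4 probe sets, and on each of them both Baf60a LKO arrays lay between the WT arrays. On the brightest the values were 10.92 and 11.28 on the WT arrays and 11.05 and 11.06 on the Baf60a LKO arrays, a difference of -0.04 ± 0.16 (limma, adjusted p = 0.940). The other probe sets differed by -0.10 to -0.01, and with array medians subtracted 1420011_s_at and 1420886_a_at were at 0.017 and 0.022. Without WT replicate 2 the brightest gave 0.14, and without WT replicate 1 it gave -0.22. The spread within WT was thus larger than the difference between genotypes for this gene.

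The arm of ATF4 and CHOP held the wider range. Asns, Chac1 and Atf3 carried a CARE upstream of their start, and Trib3 carried one just after it, which reads TGATGTAA. The stretches of Asns and Chac1 are shown because these genes differed most and in opposite directions, and that of Atf3 because it holds the same letters as Chac1. Capitals mark the CARE, which in Chac1 and Atf3 is printed in its reverse orientation.
Asns, chr6:7693210-7693252, strand -: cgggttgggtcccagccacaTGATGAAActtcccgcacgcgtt
Chac1, chr2:119351029-119351076, strand +: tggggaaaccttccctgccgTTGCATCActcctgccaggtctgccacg
Atf3, chr1:191183416-191183463, strand -: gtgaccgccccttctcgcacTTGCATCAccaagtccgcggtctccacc
In Asns the match ends 16 bases before the start and in Chac1 186 bases before it. Atf4 and Ddit3 held no such letters in their windows. Of the 6 genes of this arm 4 held a CARE, beside 4.51% of the 27025 genes with a window. These genes were listed as known targets of ATF4 and CHOP, so this share is not independent of the choice.

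Atf4, the transcription factor at the head of the arm, read 9.66 and 9.77 on the WT arrays and 9.75 and 9.60 on the Baf60a LKO arrays. The groups overlapped, and the difference of -0.04 ± 0.12 (limma, adjusted p = 0.921) became 0.0099 when WT replicate 2 was left out, 0.030 when Baf60a LKO replicate 2 was, and 0.092 with its probe sets averaged. A second probe set, 1438992_x_at, gave 6.85 and 7.81 on the WT arrays and 7.58 and 7.87 on the Baf60a LKO arrays, a difference of 0.39 ± 0.32 that was -0.090 without WT replicate 1. The low value of WT replicate 1 set the sign there. The third, 1439258_at, ran from 3.29 to 3.57, near the level of control probe sets for bacterial transcripts, whose 95th percentiles were 3.02 to 3.42. Its difference of -0.08 lay at 0.0011 after a further quantile normalization.

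Ddit3 encodes CHOP, which carries prolonged stress toward cell death. It read 6.83 and 6.50 on the WT arrays and 6.48 and 7.14 on the Baf60a LKO arrays, a difference of 0.15 ± 0.25 (limma, adjusted p = 0.852). The Baf60a LKO arrays enclosed the WT pair, and the difference became -0.18 when Baf60a LKO replicate 2 was left out, -0.016 when WT replicate 2 was and 0.48 when Baf60a LKO replicate 1 was. On its dimmer probe set, 1443897_at, the values were 5.55 and 5.36 on the WT arrays and 5.63 and 6.65 on the Baf60a LKO arrays. There the groups did not overlap and the difference was 0.69 ± 0.33, but 0.18 without Baf60a LKO replicate 2 (limma over probe sets, adjusted p = 0.641 with all arrays).

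Atf3, a factor induced by many stresses, read 4.45 and 5.04 on the WT arrays and 4.42 and 4.72 on the Baf60a LKO arrays. Its difference of -0.18 ± 0.23 (limma, adjusted p = 0.804) was smaller than the distance between the WT arrays, and was 0.12 without WT replicate 2.

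Trib3 encodes a pseudokinase that is induced by ATF4 and CHOP and dampens both ATF4 activity and insulin signalling. It read 6.25 and 6.17 on the WT arrays and 6.11 and 5.91 on the Baf60a LKO arrays, and at 4.71 and 4.93 against 4.65 and 4.51 on its other probe set. On both the Baf60a LKO arrays lay below the WT arrays. The differences were -0.20 ± 0.13 (limma, adjusted p = 0.617) and -0.24 ± 0.14, and neither passed. The first was -0.10 without Baf60a LKO replicate 2 and -0.31 after a further quantile normalization, and the second was -0.13 without WT replicate 2.

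Asns encodes asparagine synthetase, which makes asparagine from aspartate and glutamine and is a classical target of ATF4 in amino acid shortage. On its brightest probe set it read 5.14 and 5.57 on the WT arrays and 6.91 and 5.97 on the Baf60a LKO arrays. The groups did not overlap, and replicate 1 of Baf60a LKO lay furthest from the rest. The difference was 1.08 ± 0.33, or 2.12-fold, and did not pass (limma, adjusted p = 0.390, unadjusted p = 0.0188). Leaving out Baf60a LKO replicate 1 gave 0.61 and leaving out replicate 2 gave 1.56. On 1433966_x_at the values were 3.004 and 3.30 in WT, at the level of the bacterial controls, and 5.32 and 3.77 in Baf60a LKO. Both WT values lay under the 95th percentile of these controls on their arrays, so the WT level is known only as a ceiling. Set against that percentile, the mean of the knockout arrays was 2.21-fold higher. The fitted difference of 1.39 ± 0.48 did not pass (limma over probe sets, adjusted p = 0.573). The 2.21-fold is no lower limit on the genotype difference, since it rests largely on the array at 5.32. With that array dropped, the fitted difference was 0.62. On both probe sets replicate 1 of Baf60a LKO was the highest array.

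Chac1 encodes a gamma-glutamylcyclotransferase that breaks down glutathione and is induced by ATF4, ATF3 and CHOP. It read 7.49 and 7.12 on the WT arrays and 6.50 and 6.40 on the Baf60a LKO arrays, on its only probe set. Both Baf60a LKO arrays lay below both WT arrays, and by more than the distance within either group. The difference was -0.85 ± 0.16, or 1.81-fold lower, the lowest p among the members, and it did not pass (limma, adjusted p = 0.162, unadjusted p = 0.00225). With 1 array left out it ran from -1.04 to -0.67.

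**Figure D2:**
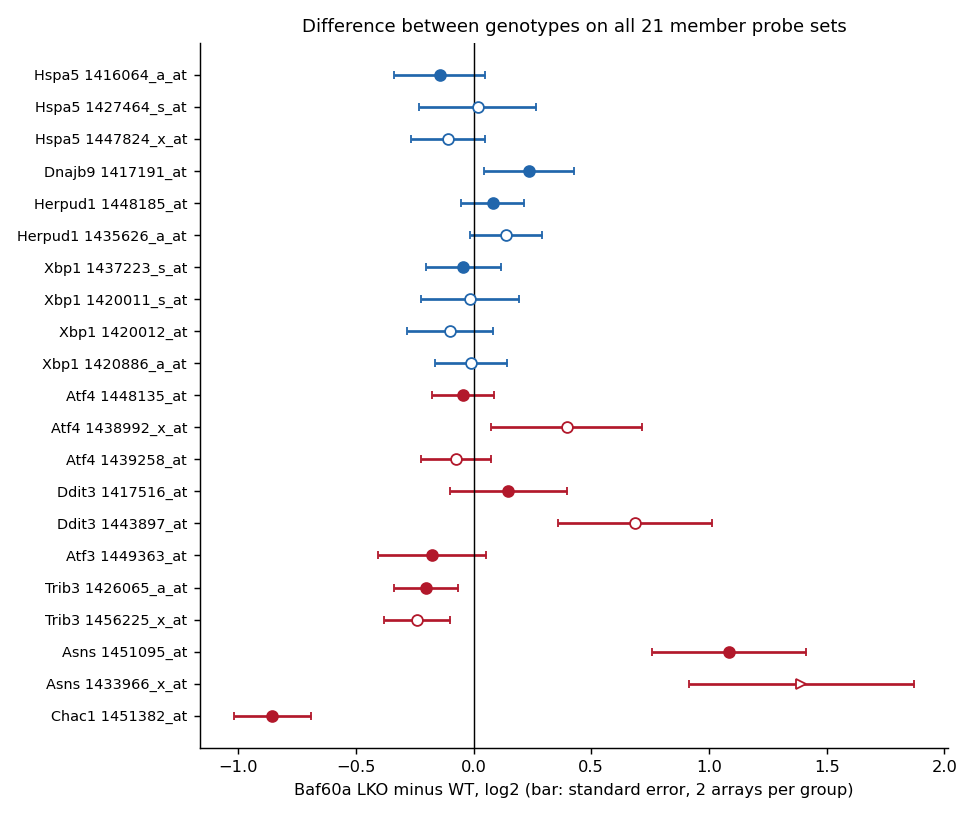
The difference between Baf60a LKO and WT on the log2 scale is plotted for each of the 21 probe sets, with the standard error of the limma fit over all probe sets (2 arrays per group). Blue marks the chaperone and XBP1 arm, red the ATF4 and CHOP arm, and filled points the brightest probe set of a gene. The 10 probe sets of the first arm lie between -0.14 and 0.24, and those of the second run from -0.85 for Chac1 to 1.08 for the brightest probe set of Asns. The triangle marks the dimmer Asns probe set at its fitted value of 1.39. Its WT values lay at the level of the bacterial controls, so the WT level is known only as a ceiling. The mean of the Baf60a LKO arrays lay 1.14 above that ceiling, which is no lower limit on the genotype difference. Without Baf60a LKO replicate 1 the fitted difference was 0.62.

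Of the 4 genes of the chaperone arm none had groups apart, and of the 6 of the other arm Asns lay higher and Trib3 and Chac1 lower without overlap. Over all genes 42.4% had groups that did not overlap, 22.8% higher and 19.6% lower in Baf60a LKO, so 3 of 10 is no larger a share. Over probe sets 3 of the 21 were apart on the higher side and 3 on the lower, beside 19.7% and 19.4% of all probe sets and 39.1% in either direction. The median difference was 0.02 in the chaperone arm and -0.11 in the ATF4 arm. The median size of a difference, without its sign, was 0.16 over the 10 members and 0.14 over all genes. The median of the chaperone arm turned to -0.0025 after a further quantile normalization, to -0.017 after cyclic loess, and to -0.040 and -0.039 when WT replicate 1 or Baf60a LKO replicate 2 was left out.

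The other genes of ER folding and degradation showed 0 calls among 30 measured, by limma over all genes. There were 2 at an unadjusted p under 0.05, where 10.2% of all genes lay. Both were higher in Baf60a LKO. Sdf2l1, an ER protein of the BiP chaperone complex, read 7.48 and 7.34 on the WT arrays and 8.03 and 8.29 on the Baf60a LKO arrays. Its groups were apart by more than their inner spread, and the difference was 0.75 ± 0.14 (adjusted p = 0.172), with 0.62 to 0.88 when 1 array was left out. Edem1, a lectin that routes glycoproteins to ERAD, read 8.997 and 9.22 on the WT arrays and 9.51 and 9.76 on the Baf60a LKO arrays, a difference of 0.52 ± 0.15 (adjusted p = 0.359) that was 0.31 with its probe sets averaged.

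Hsp90b1, the ER form of HSP90, differed by 0.10 ± 0.15, or by -0.035 when WT replicate 1 was left out, with overlapping groups. Calr, the lectin chaperone calreticulin, lay higher with groups apart by 0.16 ± 0.12. Os9, which delivers misfolded glycoproteins to degradation, also lay higher with groups apart, by 0.22 ± 0.12. On the lower side with groups apart were Sec61b of the translocon at -0.19 ± 0.12, the large chaperone Hyou1 at -0.18 ± 0.13, the oxidase Ero1b at -0.16 ± 0.12 and the co-chaperone Dnajb11 at -0.08 ± 0.12. With its probe sets averaged Ero1b was at 0.12. Hyou1 was at -0.072 without Baf60a LKO replicate 1 and Dnajb11 at -0.028 without WT replicate 1. In this list 8 of 30 genes had groups apart on the higher side and 5 on the lower, beside 22.8% and 19.6% of all genes, and the share in either direction was near the 42.4% of all genes. The median was 0.05, where that over all genes was 0 to 2 decimals.

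The promoter windows of this list were searched in the same way. An ERSE was found in the windows of 9 of the 24 other ER genes with a window, or 37.5%, beside 0.137% of all genes. These genes are known for their ER stress elements, so this share too is not independent of the choice. The elements of several are aligned to show what they share, with capitals for the fixed letters and small letters for the free bases, each in the orientation of the motif.
Hspa5, chr2:34772025-34772043, strand +: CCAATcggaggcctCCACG
Hsp90b1, chr10:86705533-86705551, strand +: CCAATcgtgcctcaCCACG
Calr, chr8:84847075-84847093, strand +: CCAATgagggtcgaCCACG
Canx, chr11:50325800-50325818, strand -: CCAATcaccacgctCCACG
Creld2, chr15:88819520-88819538, strand -: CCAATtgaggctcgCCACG
Syvn1, chr19:6046532-6046550, strand +: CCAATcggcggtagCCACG
Including Hspa5, 10 genes of the lists held an ERSE. Their differences between genotypes ran from -0.19 to 0.41 with a median of 0.08, and 0 were called. Groups were apart for 2 of them, 1 in each direction, beside 42.4% of all genes in either direction. Sdf2l1 and Edem1, which differed most in the list, were not among the genes with a match. Of the 30 listed genes 24 had a window, and whether both were among these is not given here. The missing match therefore does not show that they lack an ERSE.

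Of the other genes regulated by ATF4 and CHOP, 36 of 38 listed had a value, and Gdf15 and Pycr1 are not analysed here. Vldlr, a receptor for triglyceride-rich lipoproteins and a target of PERK and ATF4 signalling in liver, was the 1 gene that rose, and 0 fell. It read 4.72 and 5.02 on the WT arrays and 6.34 and 6.72 on the Baf60a LKO arrays, 3.16-fold higher (log2 fold change 1.66 ± 0.18, limma adjusted p = 0.0387). The call was lost without _x_at and _s_at probe sets (0.96, adjusted p = 0.103), with a replicate block (adjusted p = 0.0623) and when any of the 4 arrays was left out (1.47 to 1.85, adjusted p = 0.114 to 0.367). Vldlr answers to other regulators too. At an unadjusted p under 0.05 (limma), 3 genes of the list were higher and 5 lower, where 10.2% of all genes lay in either direction.

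The rest of this list went both ways. Fgf21, a fasting hormone of the liver that ATF4 and PPARalpha both induce, read 6.18 and 7.11 on the WT arrays and 7.57 and 7.07 on the Baf60a LKO arrays, a difference of 0.67 ± 0.34 with overlapping groups (limma, adjusted p = 0.555). It was 0.21 without WT replicate 1 and 1.14 without WT replicate 2. Higher with groups apart were Pck2, the mitochondrial PEPCK, at 0.54 ± 0.18, Psph of serine synthesis at 0.43 ± 0.17 and the oxidase Ero1a at 0.20 ± 0.12. Without WT replicate 1 they were at 0.32, 0.21 and 0.13, and Ero1a was at 0.079 with its probe sets averaged.

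Lower with groups apart were the factors Atf5 at -0.57 ± 0.13 and Cebpb at -0.36 ± 0.12. So were the arginine transporter Slc7a1 at -0.53 ± 0.23 and the cystine transporter Slc7a11 at -0.46 ± 0.15. Atf5 read 10.02 and 9.98 on the WT arrays and 9.55 and 9.30 on the Baf60a LKO arrays (limma, adjusted p = 0.266). Without WT replicate 1 Slc7a1 was at -0.19 and Slc7a11 at -0.30, and with their probe sets averaged they were at -0.31 and -0.25. Groups were apart for 5 of the 36 genes on the higher side and 10 on the lower, beside 22.8% and 19.6% of all genes, so the share in either direction was near the 42.4% of all genes. The list median was -0.03.

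A CARE was found in 9 of 31 windows of this list, or 29.0%, beside 4.51% of all genes with a window. These genes too were listed as known targets, so the share is not independent of the choice. Together with the members 14 genes held a CARE, of which 13 had a value. Their differences ran from -0.85 for Chac1 to 1.66 for Vldlr with a median of -0.09. Groups were apart for 3 on the higher side, Asns, Vldlr and Pck2. They were apart for 4 on the lower, Chac1, Trib3, Slc7a11 and Tars, an aminoacyl-tRNA synthetase gene chosen after its values were seen. Over all genes 22.8% were apart on the higher side and 19.6% on the lower, or 42.4% in either direction. Genes with a match to TGATGNAA, in which 1 base is free, lay on both sides of 0. So did genes with the same 8 letters TGATGCAA, Vldlr and Chac1 among them.

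**Figure D3:**
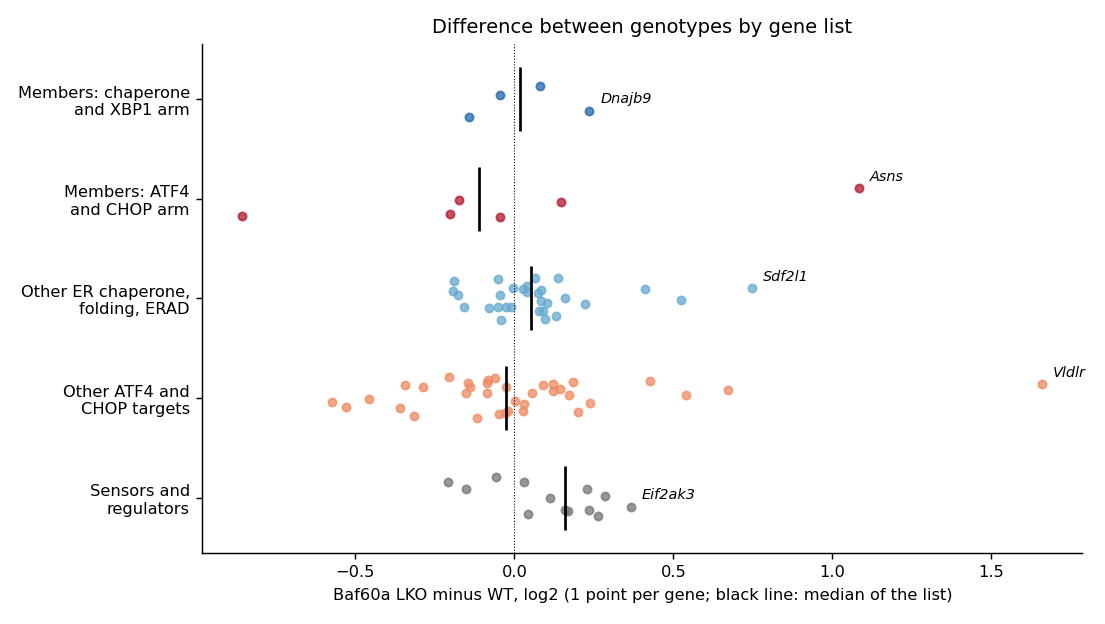
Each point is the difference between Baf60a LKO and WT of 1 gene on the log2 scale, by list, with a black line at the list's median and the gene of largest size named. The members of the ATF4 arm spread from -0.85 to 1.08 around a median of -0.11, those of the chaperone arm lie within -0.14 to 0.24, and Vldlr, the called gene, lies at 1.66.

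Of the sensors and their regulators 0 of 13 passed by limma over all genes. An unadjusted p under 0.05 was reached by 0, where 10.2% of all genes lay. Among the 13 sensors and regulators 10 were higher and 3 lower, with a median of 0.16. Over all 18193 genes 9117 were higher and 9073 lower, with a median of 0 to 2 decimals. The difference between these shares was not tested. Eif2ak3, which encodes PERK, stood at 6.74 and 7.17 in WT and at 7.32 on both Baf60a LKO arrays, a difference of 0.37 ± 0.17 (adjusted p = 0.541) that was 0.15 without WT replicate 1 and 0.08 with its probe sets averaged. Ern1, which encodes IRE1alpha, differed by 0.26 ± 0.14, which became 0.11 when WT replicate 1 was left out and 0.090 averaged. Atf6 differed by 0.17 ± 0.11, and its relative Atf6b by 0.24 ± 0.11. Mbtps2, a protease that releases ATF6, was at 0.29 ± 0.16, and at 0.14 without Baf60a LKO replicate 2. After cyclic loess Atf6 was at 0.080 and Atf6b at 0.14.

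Creb3l3, the liver factor CREBH that is cleaved like ATF6, differed by -0.06 ± 0.11. Lower with groups apart were also Eif2ak1, the haem-regulated eIF2alpha kinase, at -0.21 ± 0.14 and Nfe2l1, an ER-anchored factor, at -0.15 ± 0.12. Without WT replicate 2 Eif2ak1 was at -0.078, and without WT replicate 1 Nfe2l1 was at -0.098. Groups were apart for 6 sensors and regulators on the higher side and 3 on the lower, beside 22.8% and 19.6% of all genes. Eif2s1 is not analysed here.

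Several members differed between the 2 Baf60a LKO pools by more than most genes did. Hspa5 was higher in replicate 2 than in replicate 1 by 0.52, and 1.90% of all genes had a gap as large between these arrays in either direction. For Ddit3 the gap was 0.66, a size reached by 0.616% of genes. Asns ran the other way, with a gap of -0.94, reached by 0.126%. These percentages describe where the genes lie among all genes on these 2 arrays and are no test.

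All 4 genes of the chaperone arm and 23 of the 30 other ER genes lay higher in Baf60a LKO replicate 2 than in replicate 1, where 45.4% of all genes did. Xbp1 did so by only 0.015 on its brightest probe set, Herpud1 by 0.21 and Dnajb9 by 0.38. On the other Xbp1 probe sets the gap was 0.031 (1420011_s_at), 0.0077 (1420012_at) and, in the other direction, -0.10 (1420886_a_at). Manf, a secreted ER protein, stood at 8.87 and 9.57 on the 2 Baf60a LKO arrays, and Creld2, another ER protein, at 7.61 and 8.32. Syvn1, the ubiquitin ligase HRD1, stood at 7.74 and 8.17. These genes were chosen after their values were seen. Of the genes with an ERSE 8 of 10 were higher in replicate 2.

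In the ATF4 list 10 of 36 genes lay higher in replicate 2, as did 2 of the 6 members of that arm, Ddit3 and Atf3. Between the WT arrays 51.3% of all genes lay higher in replicate 2, and so did 3 of the 4 chaperone arm members, 18 of the 30 other ER genes and 23 of the 36 ATF4 genes. The standard deviation of the gap over all genes was 0.20 in Baf60a LKO and 0.32 in WT. What differed between the pools is not given in the labels and was not tested.

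**Figure D4:**
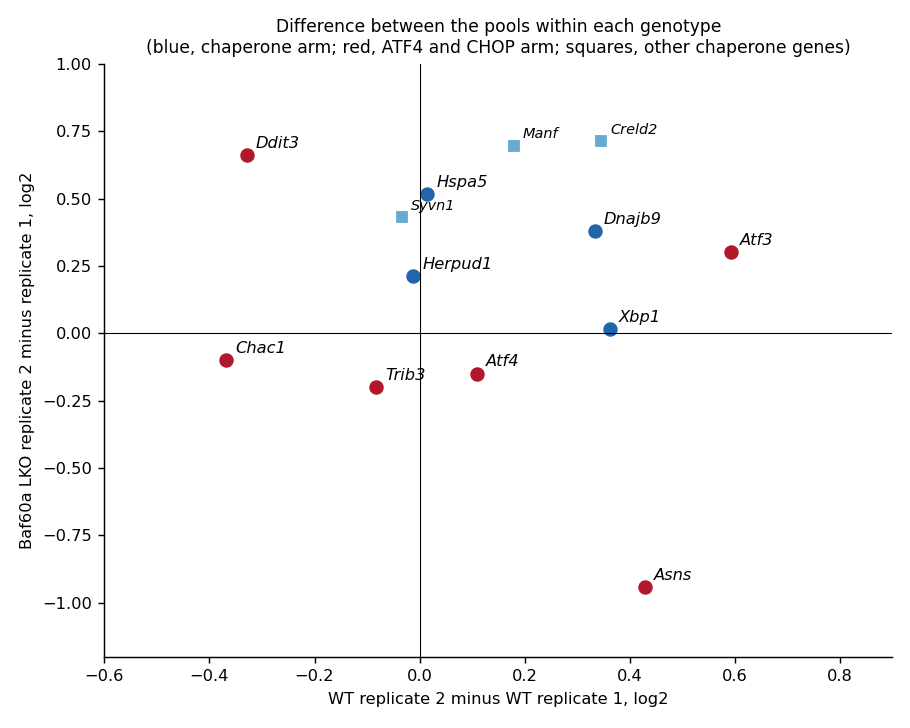
The gap between the arrays of a genotype, replicate 2 minus replicate 1 on the log2 scale, is plotted for WT on the horizontal axis and for Baf60a LKO on the vertical axis. Circles are the members (blue, chaperone arm; red, ATF4 and CHOP arm) and squares are Manf, Creld2 and Syvn1. Hspa5, Ddit3, Manf and Creld2 lie 0.52 to 0.71 above 0 on the vertical axis, and Asns lies 0.94 below it.

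Among 8 hepatocyte markers Alb, Ttr and Fgb lay higher in Baf60a LKO with groups apart and Tat and Apoa1 lower, and none of the 8 passed (limma). Beside this and the following marker counts, 22.8% of all genes had groups apart on the higher side and 19.6% on the lower. Alb stood at 14.05 to 14.17 on the 4 arrays, and Tat, a fasting-induced enzyme of tyrosine breakdown, read 11.28 and 11.23 on the WT arrays and 10.77 and 11.07 on the Baf60a LKO arrays. Of 4 measured adipocyte markers Retn and Lep lay lower in Baf60a LKO with groups apart and none higher. Retn read 4.85 and 4.18 on the WT arrays and 4.14 and 4.09 on the Baf60a LKO arrays. WT replicate 1 stood apart from the other arrays there. Lep, at 2.44 to 2.72, Adipoq, at 2.35 to 2.49, and the cholangiocyte marker Cftr, at 1.90 to 2.29, lay within the range of bacterial controls. The summed level of the adipocyte markers on the log2 scale was 5.74 and 5.23 in WT and 5.19 and 5.14 in Baf60a LKO. Of 7 endothelial markers Stab2, Kdr and Eng lay lower with groups apart, at -0.19, -0.12 and -0.18, and none higher. Lyve1 had the largest difference of the 7 and ran the other way, at 0.36 with overlapping groups. The summed level of the endothelial markers was 11.14 and 11.21 in WT and 11.15 and 11.003 in Baf60a LKO. The part of adipocytes and endothelial cells in the values of Trib3 and Chac1, which lay lower in the same arrays, was not tested. Of 6 measured cholangiocyte markers 5 were higher in Baf60a LKO with groups apart, beside 22.8% of all genes, though none passed (limma). Of these Krt7 read 3.31 and 3.22 in WT, under the 95th percentile of bacterial controls on those arrays, and 3.41 and 4.02 in Baf60a LKO. The summed level of the 6 markers on the log2 scale was 6.46 and 6.66 in WT and 7.10 and 7.45 in Baf60a LKO. The part of cholangiocytes in the values of Asns, Sdf2l1 and Edem1, which lay higher in the same arrays, was not tested. Markers of macrophages, whose summed level was 12.6 to 12.8, showed no gene of 8 with groups apart. Neutrophil markers had a summed level of 7.41 and 7.79 on the WT arrays and 7.87 and 8.07 on the Baf60a LKO arrays, with 1 of 4 higher and 1 lower with groups apart. Of the 4 acinar cell markers, Cpa1 lay at 3.16 to 3.42 and Ctrb1 at 3.27 to 3.53, while Cela1 lay at 8.64 to 8.91. Of the 6 plasma cell markers 1 had groups apart, Sdc1, which hepatocytes also express.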

How the data were processed

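Each array has 1 deposited log2 value per probe set. RMA, per the submitters' processing notes, made them (background correction, quantile normalization and probe summary) with the packages affy and limma. Versions and genome build are not given in the sources used here. RMA compresses differences at low levels. From 45101 probe sets 64 controls were left out. Symbols came from the platform annotation, updated by Entrez number through the RefSeq table of GRCm38.p6 for 34741 of 34945 probe sets with 1 symbol, while 932 had several and 9160 were not listed. A gene was read by its brightest probe set.

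The test of Baf60a LKO against WT was limma 3.58.1 (R 4.3.3; lmFit, then eBayes; 2-sided; Benjamini-Hochberg) on all genes, and on all probe sets for the other probe sets of a member, with 2 arrays per group. The script was tested on simulated data. Errors are standard errors of the fit. Named genes beyond the members are every called gene and the 4 largest differences in each direction with groups apart per list. A further 9 genes were always to be named, of which Gdf15 is not analysed here. Manf, Creld2, Syvn1, Tars and the single marker genes were named in addition, after their values were seen, and Canx for its promoter match. Members, lists and the 9 genes always to be named were chosen with earlier results of these data known. Alternatives were 3 normalizations, the brighter 50% of features, averaged probe sets, no _x_at or _s_at probe sets, the replicate number as a block, eBayes with trend and robust settings, a threshold of 0.10 and each array left out. Figures used matplotlib 3.10.9 in Python 3.11.15.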

Additional observations from a re-analysis of the deposited data

How the results depend on the processing

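The count of called members was 0 in each arm, and 0 of the 21 probe sets, under each alternative run, including an adjusted p under 0.10, and so were the counts among the other ER genes and the sensors. Among the other ATF4 and CHOP targets it was 0 in place of 1 without _x_at and _s_at probe sets, with a replicate block and with any 1 array left out (0 to 0). The median of the chaperone arm, 0.018, was -0.0025 after quantile normalization and -0.017 after cyclic loess, and -0.040 to 0.15 with 1 array left out. That of the ATF4 arm, -0.11, ran from -0.14 to -0.0032 with 1 array left out. Of 47 single differences followed, 31 kept their sign under every alternative in which they had a value, among them Asns, Chac1, Trib3, Sdf2l1 and Atf5, and 16 did not. Turned were Atf4 (0.092) and Ero1b (0.12) with averaged probe sets, Hspa5 on 1427464_s_at after quantiles (-0.018) and loess (-0.045), Atf4 on 1439258_at after quantiles (0.0011), and Xbp1 on 1420011_s_at and 1420886_a_at with medians subtracted (0.017 and 0.022). With 1 array left out signs turned within these ranges: Hspa5 -0.40 to 0.12, Herpud1 -0.026 to 0.19, Xbp1 -0.22 to 0.14, Atf4 -0.12 to 0.030, Ddit3 -0.18 to 0.48, Atf3 -0.47 to 0.12 and Hsp90b1 -0.035 to 0.24. For single probe sets they were, for Hspa5, -0.34 to 0.38 on 1427464_s_at and -0.25 to 0.028 on 1447824_x_at, and for Herpud1 -0.015 to 0.29 on 1435626_a_at. For Xbp1 they were -0.31 to 0.27 on 1420011_s_at, -0.33 to 0.14 on 1420012_at and -0.16 to 0.14 on 1420886_a_at, and for Atf4 -0.090 to 0.88 on 1438992_x_at and -0.20 to 0.045 on 1439258_at. A group left with 1 pool is assumed to vary like the other group. The cause of these changes was not tested, beyond the fewer arrays or other probe sets that the alternatives themselves bring. Replicate numbers are shared across genotypes, but the gaps between same-numbered arrays correlated at 0.14 over genes in only 2 pairs, so the numbers were not taken to pair the samples. With the replicate block Vldlr kept its difference of 1.66 at an adjusted p of 0.0623 (limma), and no other call changed. Asns on 1433966_x_at, Atf4 on 1439258_at, Atf3, Slc7a1 and Slc7a11 had no value among the brighter 50%. Dim probe sets, such as 1439258_at of Atf4 near the bacterial controls, limit what can be seen.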
